A study of Mus musculus with 12 samples.

Results

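The interferon response and antigen presentation genes are 43 genes picked by symbol, all of them present among the 24421 genes of the count files and all 43 among the 15622 that passed the filter on low counts. Polyadenylated RNA of dorsal hippocampus was sequenced in 12 libraries from male 129sv/C57BL/6j mice of 4 to 5 months, each library with its own number in the labels. The libraries formed 4 groups of 3: WT house controls, WT trained mice, Mbnl2 KO house controls and Mbnl2 KO trained mice. All groups share the strain background, the sex and the age range. The labels do not describe the KO allele, the task, or the time between training and dissection. Mbnl2 encodes an RNA-binding protein that regulates splicing. Its gene-level count was higher in every KO-labelled library (454 to 542 CPM) than in every WT library (315 to 365 CPM), which is no check of the deletion, and genotype is used here as labelled.

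Interferons are secreted proteins that signal through the JAK kinases to transcription factors, STAT2 and IRF9 among them. Factors of this pathway bind interferon-stimulated response elements (ISRE) and gamma-activated sites (GAS) in the promoters of target genes. The targets include RNA sensors, antiviral effectors and the machinery that cuts, transports and displays peptides on MHC class I. MHC class II chains present peptides taken up from outside the cell and are found on specialised antigen-presenting cells, which in the healthy brain sit mainly at its borders, in the meninges, the choroid plexus and around vessels. In the resting brain most of these genes are transcribed at low levels by microglia, endothelium and other cells.

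Promoter sequences are shown first for 6 members chosen because they carry the letters of the ISRE core. They therefore do not show how common these letters are among the members. RefSeq promoters (build GRCm38.p6, 250 bases before to 50 bases after each start) were matched by symbol for 34 members, and 9 members had no entry. Each line gives the 170 bases that end at the base before the start, 5′ to 3′ along the gene's strand. Capitals mark matches to GAAANNGAAA on either strand, including matches that overlap each other. Isg15 encodes a ubiquitin-like protein, Rsad2 the antiviral enzyme viperin, Ifit1 and Ifit3 RNA-binding antiviral proteins, Gbp3 a guanylate-binding GTPase and B2m the light chain of MHC class I.
Isg15, chr4:156200819-156200988, minus strand: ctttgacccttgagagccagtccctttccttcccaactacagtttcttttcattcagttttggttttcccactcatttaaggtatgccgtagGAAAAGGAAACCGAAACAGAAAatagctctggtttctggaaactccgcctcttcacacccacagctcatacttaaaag
Rsad2, chr12:26456453-26456622, minus strand: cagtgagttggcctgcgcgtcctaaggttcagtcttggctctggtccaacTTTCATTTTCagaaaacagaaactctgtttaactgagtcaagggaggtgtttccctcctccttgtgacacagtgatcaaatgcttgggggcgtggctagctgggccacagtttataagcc
Ifit1, chr19:34640719-34640888, plus strand: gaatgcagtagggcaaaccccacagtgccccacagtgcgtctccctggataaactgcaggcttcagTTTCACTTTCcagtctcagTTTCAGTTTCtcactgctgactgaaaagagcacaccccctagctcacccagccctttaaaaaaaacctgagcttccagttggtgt
Ifit3, chr19:34583359-34583528, plus strand: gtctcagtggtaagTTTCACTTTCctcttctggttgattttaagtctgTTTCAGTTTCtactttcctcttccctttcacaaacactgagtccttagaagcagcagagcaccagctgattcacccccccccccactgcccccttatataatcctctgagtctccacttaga
Gbp3, chr3:142559874-142560043, plus strand: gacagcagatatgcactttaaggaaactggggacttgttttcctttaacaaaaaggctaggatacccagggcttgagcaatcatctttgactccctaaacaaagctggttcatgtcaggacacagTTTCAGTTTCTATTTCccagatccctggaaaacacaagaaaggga
B2m, chr2:122147517-122147686, plus strand: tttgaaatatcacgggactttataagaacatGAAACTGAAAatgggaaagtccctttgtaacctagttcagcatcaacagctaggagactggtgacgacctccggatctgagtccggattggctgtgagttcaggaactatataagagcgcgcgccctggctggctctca

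The Isg15 stretch holds 3 overlapping matches, beginning 78, 72 and 66 bases before the start. Ifit1 (104 and 85 bases before the start), Ifit3 (156 and 122) and Gbp3 (45 and 39) hold 2 matches each, and Rsad2 (120) and B2m (139) hold 1 each. In all, 15 of the 34 members with a promoter entry (44.1%) held the ISRE letters, against 3.99% of all 27025 genes in the RefSeq table, counted in the same way over any promoter of a gene (3.44% of its 32851 promoters). The other members with these letters were Bst2, Ddx58, Eif2ak2, Gbp2, Ifih1, Ifitm2, Ifitm3, Psme1 and Stat2. The GAS letters TTCNNNGAA, read on both strands, were in 7 of 34 members (20.6%), in 9.55% of all genes and in 8.3% of all promoters. Those 7 were Bst2, Eif2ak2, Ifi35, Ifit2, Ifitm3, Irf1 and Psmb8. A match is a run of letters in this window and says nothing of binding.

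The members are unevenly spread over the genome, with 11 on chromosome 17, where the MHC lies, 5 on chromosome 11 and 4 on chromosome 7. Per kilobase of exon, B2m had the highest mean level over all libraries, at 67.8 CPM per kb (CPM, counts scaled to library size). Next came Ifi27 at 20.4, Ifitm3 at 10.7, Psme1 at 9.46 and Tapbp at 8.97 CPM per kb. Nlrc5 (0.0530) and Ifi44 (0.0613) had the lowest levels per kb. Libraries held 19737929 to 27427076 counts, and a floor of 3 counts was worth 0.105 to 0.154 CPM, which covers counting error only. No member had 0 counts in any library, and the lowest member count was 2.

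Markers of the hippocampal neurons were present in every library, with summed levels of 6447 to 12241 CPM over 18 genes. The libraries also carried differing amounts of other tissue. The choroid plexus marker sum (18 genes) ran from 208 to 23092 CPM and was highest in WT house control replicate 3, at 23092 CPM, WT trained replicate 3, at 11956 CPM, and WT house control replicate 2, at 11619 CPM. The striatum marker sum was 1177 CPM in WT house control replicate 3, 1375 in KO house control replicate 2 and 1820 in KO trained replicate 2, and 287 to 391 CPM in the other 9 libraries. The house controls richest in choroid plexus or thalamus RNA were replicate 3 of either genotype and WT replicate 2, and fits without these 3 are given with the results they touch. These 3 also had the highest median member levels of the 12 libraries, so leaving them out lowers the house control level by construction. Trained libraries were kept, though WT trained replicate 3 and KO trained replicate 2 (6803 CPM) had choroid plexus sums above that of KO house control replicate 3 (4455 CPM).

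The 43 genes were highest in the WT house controls. In 41 of them the group mean was highest there, while over all tested genes 34.4% had their highest mean in that group. Stat2 had its highest mean in WT trained mice and Xaf1 in KO house controls. The lowest mean was in WT trained mice for 17 members, in KO trained mice for 16, in KO house controls for 8 and in WT house controls for 2. Relative to each gene's mean over the 12 libraries, the median member stood at 0.13, 0.56 and 0.68 (log2 CPM) in WT house control replicates 1, 2 and 3. It stood at -0.04, -0.55 and 0.07 in the WT trained libraries, at -0.34, -0.12 and 0.28 in the KO house controls and at -0.37, -0.21 and 0.11 in the KO trained libraries. WT house control replicate 3 alone held the highest value of 20 members, and WT trained replicate 2 the lowest value of 17. The groups overlapped, since KO house control replicate 3 lay above WT house control replicate 1.

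**Figure D1:**
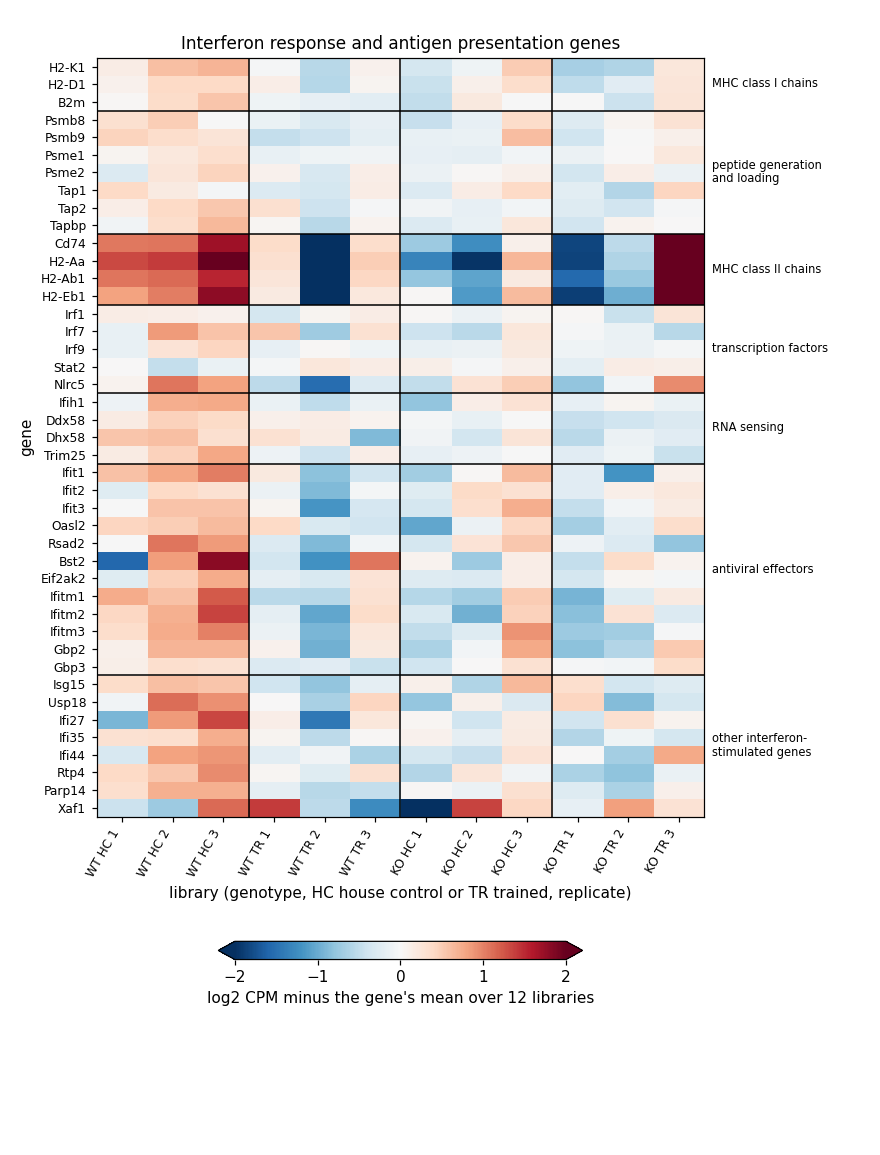
Level of each of the 43 genes (vertical axis, grouped by role) in each of the 12 libraries (horizontal axis), as log2 CPM minus the gene's mean over all libraries, with the colour scale ending at -2 and 2. WT house control replicates 2 and 3 are red in most genes, with medians of 0.56 and 0.68, and the class II chains have the widest range, with KO trained replicate 3 dark red and WT trained replicate 2 dark blue.

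In house controls, 41 of the 43 genes lay lower in KO than in WT mice, with a median log2 fold change of -0.51 against -0.00 over all genes tested. No member passed an adjusted p of 0.05 in edgeR's quasi-likelihood fit after Benjamini-Hochberg adjustment (0.0128% of all genes did), and none did by DESeq2 (1.39% of all genes). At an unadjusted p under 0.05, edgeR had 9 members lower and 0 higher, where 10.7% of all genes passed in either direction and 4.56% were lower. The 9 were Ddx58, Psme1, Trim25, Tap2, Rtp4, Ifitm1, Parp14, Ifitm2 and Usp18. In 15 members all 3 KO values were under all 3 WT values, as in 6.09% of all genes. These 15 were Ddx58, Psme1, Trim25, Tap2, Rtp4, Ifitm1, Parp14, Cd74, H2-Aa, H2-Ab1, H2-Eb1, Ifi35, Oasl2, Dhx58 and Irf1. In the authors' deposited table the class II genes Cd74 and H2-Ab1, 2 of the members, had an adjusted p under 0.05, both lower (0.558% of its genes with an adjusted p). The 2 members on the other side of 0 in the edgeR fit were Stat2 (0.26, SE 0.13) and Xaf1 (0.21, SE 0.88).

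The count of 9 depended on single libraries: it was 20 without WT house control replicate 1, 5 without replicate 2 and 2 without replicate 3. It was 3 without KO house control replicate 1 and 14 without KO house control replicate 3. The share of all genes, 10.7% in the main fit, moved too, to 19%, 6.93% and 6.92% without those WT libraries. Without those KO libraries it was 9.22% and 10.1%. The members' median was -0.30 without the 3 tissue-rich house control libraries, a fit that leaves 1 WT house control.

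After training, the members lay on both sides of 0 for genotype. Of the 43, 21 were lower and 22 higher in KO than in WT trained mice, with a median of 0.01 against -0.01 over all genes. By edgeR no member passed the adjusted threshold (0.0128% of all genes), nor by DESeq2 (0.752%), nor in the authors' deposited table (0.834%). Ddx58, which encodes the RNA sensor RIG-I, was the only member at an unadjusted p under 0.05 by edgeR (6.45% of all genes). All its KO trained values were under all its WT trained values, and for Gbp3 all were above. With 3 libraries a group, such a separation alone does not set a gene apart, and its share over all genes in trained mice is not given here. Gbp3 was at 2.53, 2.61 and 2.22 CPM in WT and at 3.02, 2.95 and 3.97 CPM in KO trained mice (log2 fold change 0.43, SE 0.21, edgeR adjusted p = 0.805). The number lower was 13 without KO trained replicate 1. Leaving out WT trained replicate 2, either of KO house controls 1 and 3, or either of KO trained mice 1 and 3 gave 2 members at the unadjusted p. In those fits 4.77% to 6.62% of all genes passed.

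Training in WT mice gave the second comparison in which most members shared a direction. It has the WT house controls in common with the genotype comparison in house controls, so the pair are not independent. In WT mice 41 of 43 members were lower after training, with a median of -0.62 against -0.01 over all genes, and Stat2 and Xaf1 were again the exceptions. By edgeR 0 members passed the adjusted threshold (0% of all genes). At an unadjusted p under 0.05 there were 16 lower and 1 higher (Stat2), where 9.82% of all genes passed either way and 5.04% were lower. In 25 members all trained values were under all house control values, as in 7.8% of all genes. DESeq2 called 1 member, Parp14, lower (0.0734% of all genes), and none was called in the authors' deposited table (0.117% of its genes). The 17 members at an unadjusted p became 26 without WT house control replicate 1, 6 without replicate 2, 8 without replicate 3 and 5 without WT trained replicate 2. Over all genes the share moved too, from 9.82% to 24.9%, 4.11%, 5.41% and 3.97% in these fits. The members' median was -0.29 without the 3 tissue-rich house control libraries, a fit that leaves 1 WT house control and leaves out the libraries with the highest member medians.

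Training in KO mice gave no common direction. Here 28 of 43 members were lower after training, with a median of -0.07 against -0.00 over all genes, and the number was 17 without KO house control replicate 3. No member passed the adjusted threshold by edgeR (0% of all genes), by DESeq2 (0.0449%) or in the authors' deposited table (0.0716%). Ddx58 was the 1 member at an unadjusted p under 0.05 by edgeR (3.01% of all genes). That count was 0 without KO house control replicate 1 or 3 or KO trained replicate 2, and 2 without KO trained replicate 3. Over all genes 2.15% to 5.42% passed in these fits.

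**Figure D2:**
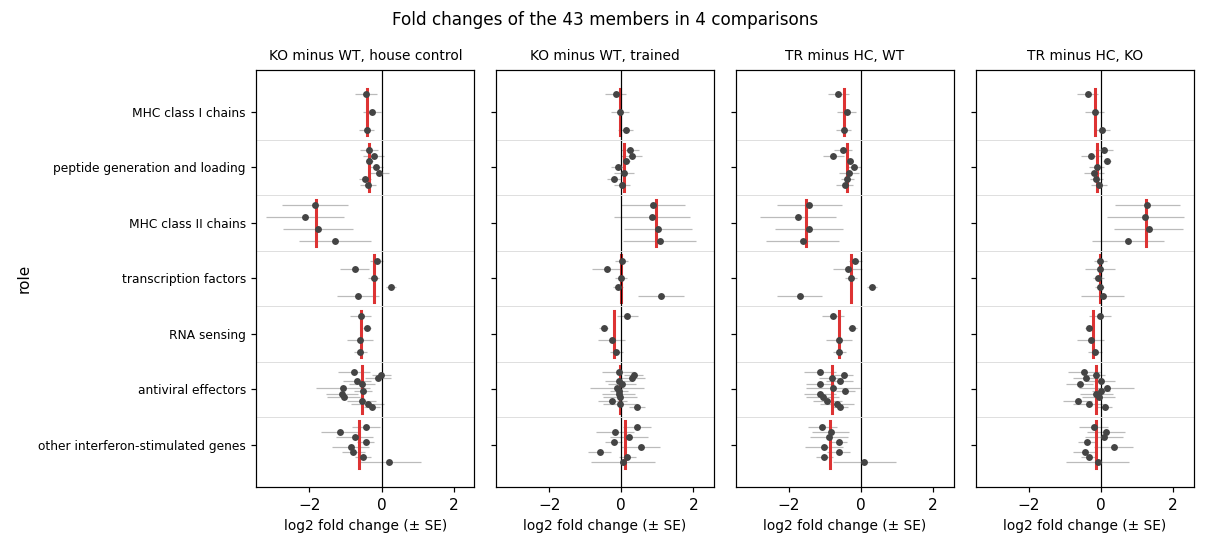
Log2 fold change (horizontal axes, points with ± 1 SE) of each member in the 4 pairwise comparisons, grouped by role (vertical axis), with red bars at the median of each role and the vertical line at 0. Points lie left of 0 for 41 of 43 genes in both comparisons with the WT house controls, and on both sides of 0 in the remaining comparisons.

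The test of the difference between the training effects did not pass for any member. The interaction term was positive in 40 of 43 members (median 0.48, against -0.01 over all genes), and 0 passed the adjusted threshold by edgeR (0% of all genes) or by DESeq2 (0%). Psme1 (0.48, SE 0.14) and Gbp3 (0.70, SE 0.30) had an unadjusted p under 0.05 by edgeR, where 1.5% of all genes did, both with an adjusted p = 1 after rounding. The count of 2 was 11 without WT house control replicate 1, 8 without KO house control replicate 3, and 6 and 7 without KO trained replicates 1 and 2. Over all genes 5.38%, 1.97%, 2.2% and 1.2% passed in these fits. The count was 1 when WT house control 2 or 3, WT trained mouse 3, KO house control 1 or KO trained mouse 3 was left out. There 1.05% to 2.19% of all genes passed.

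Ddx58 was the 1 member called in the mean genotype effect, the contrast of the 6 KO with the 6 WT libraries over both treatments. RIG-I, its product, recognises double-stranded RNA with a 5′ triphosphate and starts interferon production. The WT house controls had 7.04, 8.69 and 8.22 CPM and the WT trained mice 6.78, 6.95 and 6.63 CPM. The KO house controls were at 6.15, 5.67 and 6.27 CPM and the KO trained mice at 4.55, 4.75 and 5.16 CPM. All 6 KO libraries were thus below all 6 WT libraries, and within each genotype all 3 trained mice were below all 3 house controls. For training in WT mice 7.8% of all genes had that separation, and the share for KO mice is not given here. Ddx58 (chromosome 4, 40203773 to 40239828, mm10) fell 1.37-fold, from 7.39 ± 0.855 to 5.43 ± 0.720 CPM (SD, n = 6 each), a log2 fold change of -0.45 (SE 0.08, adjusted p = 0.0498 by edgeR). By edgeR this was 1 of 43 members, where 0.576% of all genes were called, and by DESeq2 it was also the only one (adjusted p = 0.000753), where 5.04% of all genes were called. Its non-overlap of 6 with 6 was shared by no other member and by 0.717% of all genes in that direction.

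The edgeR call lay close to the threshold. It held without WT house control replicate 1 (adjusted p = 0.0286) and ended without any one of the other 11 libraries (adjusted p from 0.0751 to 0.140), while the log2 fold change stayed between -0.49 and -0.41. Over all genes 90 were called in the main fit, 268 without WT house control replicate 1 and 8 to 63 without any one of the others. The call of Ddx58 also ended with median-of-ratios scaling (edgeR adjusted p = 0.0521) and without the filter (0.0685). Without the 3 tissue-rich house control libraries, a fit that leaves 1 WT house control, its log2 fold change was -0.37. Within a treatment the genotype difference was -0.41 (SE 0.12, edgeR adjusted p = 0.321) in house controls and -0.49 (SE 0.12, edgeR adjusted p = 0.380) in trained mice. With training it was -0.24 (SE 0.12) in WT and -0.32 (SE 0.12) in KO mice, and the interaction was -0.09 (SE 0.17, edgeR adjusted p = 1 after rounding).

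The remaining RNA sensing genes are Ifih1 (the sensor MDA5), Dhx58 (the regulator LGP2) and Trim25 (a ubiquitin ligase acting on RIG-I). Trim25 was at 8.999, 11.04 and 13.8 CPM in WT house controls, 7.48, 6.02 and 8.81 in WT trained, 7.15, 7.46 and 7.96 in KO house controls and 6.81, 7.52 and 5.89 in KO trained mice. All 3 WT house controls were above all other libraries, whose ranges overlapped. Its log2 fold change was -0.58 (SE 0.18, edgeR adjusted p = 0.343) for genotype in house controls and -0.36 (SE 0.13, edgeR adjusted p = 0.229) over both treatments. Over the 4 RNA sensing genes the median was -0.58 for genotype in house controls, -0.21 in trained mice, -0.60 for training in WT and -0.22 for training in KO mice. All 4 lay below 0 in the 3 comparisons other than genotype in trained mice, where Ifih1 lay above.

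Over both treatments, 34 of 43 members were lower in KO than in WT mice (median -0.21, against -0.01 over all genes). At an unadjusted p under 0.05 by edgeR there were 4, all lower, where 14.4% of all genes passed in either direction. The count of members is thus under that share. Besides Ddx58 and Trim25 these were Rtp4, a chaperone of receptor transport induced by interferon (-0.69, SE 0.23, edgeR adjusted p = 0.197), and Tap2, a subunit of the peptide transporter (-0.33, SE 0.13, edgeR adjusted p = 0.259). The count of 4 was 7 without WT house control replicate 1 or KO trained replicate 3, 8 without KO house control replicate 3 and 2 without WT house control replicate 3. Over all genes 19.3%, 13.4%, 14.4% and 12.6% passed in these fits, in that order.

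Over both genotypes, 41 of 43 members were lower in trained than in house control mice, with a median of -0.31 against -0.01 over all genes. By edgeR 0 were called (0% of all genes) and 12, all lower, had an unadjusted p under 0.05, where 11.2% of all genes passed and 6.59% were lower. The 12 were Parp14, Ddx58, Rsad2, Trim25, Ifi35, Ifitm3, Ifit1, Psmb9, Ifit3, H2-K1, Rtp4 and Isg15. No member had all 6 trained below all 6 house control values, as 0.288% of all genes had. DESeq2 called 1 member, Parp14, lower (adjusted p = 0.0393; 0.483% of all genes). The count of 12 was 7 without WT house control replicate 2 or 3 or KO trained replicate 2. It was 6 without WT trained replicate 2 and 5 without KO house control replicate 3. Over all genes 6.99%, 8.19%, 15.5%, 7.31% and 8.99% passed in these fits, in that order.

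By role, the MHC class I chains were abundant, and none of the 3 passed the adjusted threshold. H2-K1 (chromosome 17, 33996017 to 34000347) and H2-D1 encode the classical heavy chains. B2m was at 58.3, 73.4 and 84.1 CPM in WT house controls, 54.0, 51.0 and 49.3 in WT trained, 40.6, 65.3 and 56.8 in KO house controls and 56.7, 42.5 and 68.1 in KO trained mice. H2-K1 was at 27.3, 37.2 and 39.4 CPM in WT house controls, 24.1, 16.7 and 26.1 in WT trained, 19.2, 23.1 and 34.8 in KO house controls and 15.4, 16.04 and 28.6 in KO trained mice. For both, every WT trained value was below every WT house control value, and the KO groups overlapped both. B2m was 1.40-fold lower after training in WT mice (log2 fold change -0.48, SE 0.20) and H2-K1 1.55-fold lower (-0.63, SE 0.29), both with an adjusted p = 0.502 by edgeR. H2-D1 ranged from 9.15 to 17.9 CPM over the 12 libraries. The heavy chains are closely similar to other class I genes, so the counting could have split their reads.

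The genes for peptide generation and loading encode immunoproteasome subunits (Psmb8, Psmb9), the proteasome activator PA28 (Psme1, Psme2), the peptide transporter (Tap1, Tap2) and tapasin (Tapbp). All 7 were lower in KO than in WT house controls (median -0.34) and all 7 lower after training in WT mice (median -0.37). Psme1 (chromosome 14, 55578123 to 55581529) was at 21.6, 23.97 and 26.3 CPM in WT house controls, 18.7, 19.6 and 19.7 in WT trained, 18.6, 18.2 and 19.98 in KO house controls and 19.2, 20.9 and 23.97 in KO trained mice. For Psme1 the WT house controls lay above the WT trained and KO house control mice, and the KO trained mice overlapped all 3 groups. Its log2 fold change was -0.34 (SE 0.10, edgeR adjusted p = 0.321) for genotype in house controls and -0.31 (SE 0.10, edgeR adjusted p = 0.502) for training in WT mice. Psmb9 was at 1.23, 1.16 and 1.07 CPM in WT house controls and 0.613, 0.642 and 0.766 CPM in WT trained mice, with KO libraries from 0.651 to 1.40 CPM. Psmb9 and Tap1 share 212 exonic bases on opposite strands, and the sources used here do not say whether counting was by strand. In KO mice 5 of the 7 were lower after training (median -0.11).

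The MHC class II chains had the largest differences between house controls of the 43 members and the largest spread over the libraries. Cd74 encodes the invariant chain, H2-Aa and H2-Ab1 the I-A chains and H2-Eb1 the I-E beta chain. Cd74 was at 12.1, 12.3 and 19.0 CPM in WT house controls, 7.52, 1.08 and 7.43 in WT trained, 3.47, 2.40 and 6.22 in KO house controls and 1.57, 4.01 and 24.1 in KO trained mice. The WT house controls were above every other library except KO trained replicate 3, which had the highest value of all. H2-Ab1 (chromosome 17, 34257689 to 34269419) was at 4.42, 4.63 and 6.11 CPM in WT house controls, 2.45, 0.281 and 2.80 in WT trained, 1.17, 0.952 and 2.36 in KO house controls and 0.651, 1.20 and 9.45 in KO trained mice. H2-Aa and H2-Eb1 were likewise higher in the WT house controls than in all other libraries but 1, with their highest values, 8.54 and 10.1 CPM, also in KO trained replicate 3 and their lowest, 0.281 CPM each, in WT trained replicate 2. Across the 12 libraries, after subtracting group means, the 6 pairs of class II genes correlated at r of 0.97 to 0.99, where the median over all 903 pairs of members was 0.46. These are descriptions over libraries that share depth and tissue makeup.

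In house controls Cd74 was 3.60-fold lower in KO than in WT mice by edgeR (log2 fold change -1.85, SE 0.92, adjusted p = 0.496) and H2-Ab1 3.40-fold lower (-1.76, SE 0.96, adjusted p = 0.528). The authors' deposited table gives log2 fold changes of -1.84 (SE 0.40, adjusted p = 0.00217) for Cd74 and -1.77 (SE 0.41, adjusted p = 0.00898) for H2-Ab1. The sizes are close and the standard errors are smaller in the authors' deposited table. There, 35 of the 43 members had an adjusted p. After training in WT mice Cd74 lay at -1.43 (SE 0.90, edgeR adjusted p = 0.528). In KO mice it lay at 1.30 (SE 0.91, edgeR adjusted p = 1 after rounding), and at -0.52 without KO trained replicate 3. The interaction for Cd74 was 2.73 (SE 1.28, edgeR adjusted p = 1 after rounding), and 0.90 without that library. In this bulk tissue, fewer class II cells and less transcript per cell cannot be told apart.

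In both comparisons that use the WT house controls, markers of border tissue lay lower together with the class II chains and with most members. Leptomeningeal fibroblast markers (16 genes, 16 of them detected in every library) summed to 1522, 1528 and 2260 CPM in WT house controls and 617, 237 and 1461 in WT trained mice. They summed to 402, 256 and 800 CPM in KO house controls and 333, 615 and 763 in KO trained mice. All 16 were lower for genotype in house controls (median -1.54) and all 16 for training in WT mice (median -1.28). The border macrophage list (10 genes, 9 tested) summed to 28.7 to 48.2 CPM in WT house controls, 20.02 to 23.8 in WT trained, 18.5 to 35.3 in KO house controls and 15.6 to 26.1 in KO trained mice. All 9 were lower in both comparisons (medians -1.07 and -1.31). Mrc1, a defining marker of these macrophages, was at 4.94 to 10.2 CPM in WT house controls and 1.01 to 5.16 CPM in the other 9 libraries.

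In the comparisons without the WT house controls, the class II chains lay higher and border markers lay on both sides of 0. Both comparisons include KO trained replicate 3, the library with the highest level of every class II chain. In the other KO trained libraries Cd74 was at 1.57 and 4.01 CPM, against 7.52, 1.08 and 7.43 CPM in WT trained mice. Without KO trained replicate 3, Cd74 lay at -0.52 for training in KO mice. For genotype in trained mice the class II chains were higher in 4 of 4 (median 0.95), while leptomeningeal markers were lower in 13 of 16 (median -0.17) and border macrophage markers in 3 of 9 (median 0.21). For training in KO mice the class II chains were again higher in 4 of 4 (median 1.26), with leptomeningeal markers lower in 8 of 16 (median 0.02) and border macrophage markers in 6 of 9 (median -0.20). KO trained replicate 3, with the highest Cd74 of all libraries at 24.1 CPM, had a leptomeningeal sum of 763 CPM and a border macrophage sum of 25.3 CPM, both under all 3 WT house controls.

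Endothelial markers, 16 genes, summed to 618, 652 and 765 CPM in WT house controls and 408 to 594 CPM in the other 9 libraries, with 15 of 16 lower for genotype in house controls (median -0.36) and 16 of 16 for training in WT mice (median -0.46). Mural cell markers were lower in 10 and 12 of 12 (medians -0.28 and -0.50). Choroid plexus markers were lower in 18 of 18 in both (medians -1.96 and -0.96), and WT house control replicate 1 had a choroid sum of 322 CPM beside class II levels close to those of replicate 2, at 11619 CPM. Microglial markers did not share the pattern: of 19 genes 2 were lower for genotype in house controls (median 0.17) and 13 for training in WT mice (median -0.07), and their sums overlapped across groups at 479 to 745 CPM. Astrocyte markers were lower in 5 and 13 of 14 (medians 0.02 and -0.19).

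Markers of other cells and of neighbouring regions also differed. Ependymal markers were lower in 10 of 10 for genotype in house controls (median -0.91) and in 10 of 10 for training in WT mice (median -1.23). Oligodendrocyte markers were lower in 10 of 13 (median -0.06) and in 13 of 13 (median -0.64), and thalamus markers in 12 of 14 (median -0.48) and 13 of 14 (median -1.13). Striatum markers were lower in 3 of 14 (median 0.33) and in 14 of 14 (median -1.41). Hippocampal neuron markers lay on the other side of 0 in most cases, with 5 and 2 of 18 lower (medians 0.30 and 0.29). The part of these markers in the members' levels was not tested.

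Blood cell markers were mostly low. The red cell list (6 genes, 1 tested) summed to 2.31 to 6.28 CPM in WT house controls, 1.59 to 2.72 in WT trained, 1.79 to 3.67 in KO house controls and 1.65 to 3.06 in KO trained mice. Of its genes, Hba-a1 and Hbb-bt were at 0 in all 12 libraries, and the tested gene, Alas2, lay at -0.67 for genotype in house controls and -1.07 for training in WT mice (edgeR adjusted p = 0.534 and 0.502). The neutrophil genes S100a8 and S100a9 were at or under 0.124 CPM. Cd3e, a defining T cell marker, was at or under 0.0766 CPM in 11 libraries and at 0.228 CPM in KO trained replicate 3, the library with the highest class II levels. The lymphocyte list (13 genes, 12 in the files, 1 tested) summed to 0.669 to 7.68 CPM in WT house controls, 0.281 to 0.689 in WT trained, 0.579 to 10.8 in KO house controls and 0.574 to 11.62 in KO trained mice. KO trained replicate 3 was at 1.64 CPM in that sum. The highest lymphocyte sums were in WT house control replicate 3, KO house control replicate 2 and KO trained replicate 2. These libraries also had the highest striatum marker sums (1177, 1375 and 1820 CPM), with Cd3e at 0.0381 to 0.0461 CPM.

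With a leptomeningeal or endothelial marker mean as a covariate fewer members shared a direction, while the share of all genes below 0 stayed between 47.2% and 54.8%. These covariates did not act on the members alone. The share of all genes at an unadjusted p under 0.05 by edgeR fell from 10.7% to 6.77% and 3.72% for genotype in house controls. For training in WT mice it fell from 9.82% to 6.3% and 2.16%. With the leptomeningeal mean, 25 of 43 were lower for genotype in house controls (median -0.13), and Cd74 was at 0.28. With the endothelial mean, a fit added after the values were seen, 21 were lower (median 0.13), and Cd74 was at 0.84. For training in WT mice the medians were -0.21 and 0.05. With the choroid plexus mean the genotype median in house controls was -0.36. What part these tissues had in the lower levels was not tested beyond these fits, in which the covariate and the group share much of their variation.

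**Figure D3:**
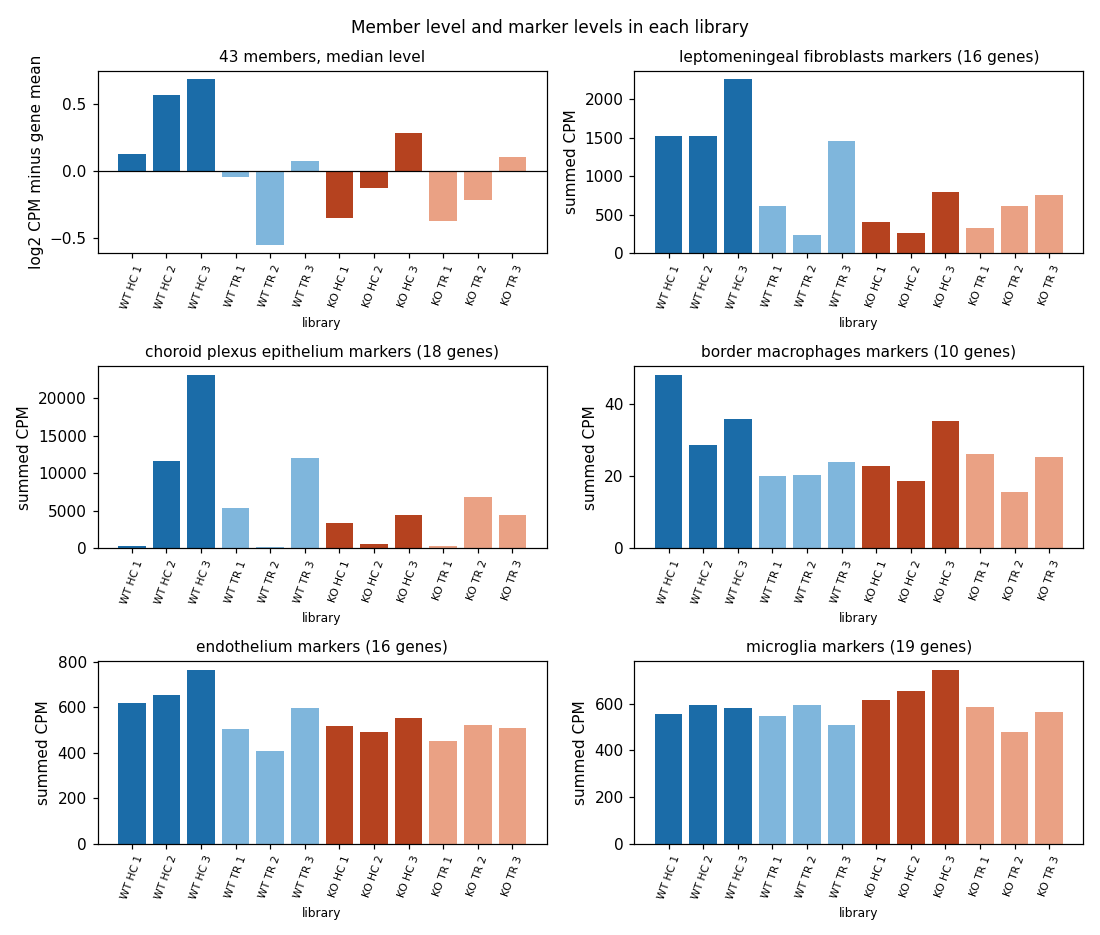
Median level of the 43 genes in each library (first panel, log2 CPM minus the gene mean) beside the summed CPM of 5 marker lists (other panels, bars from 0), with 1 bar a library and colours for the 4 groups. WT house control replicates 2 and 3 are highest in the first panel, and all 3 WT house controls in the endothelial and leptomeningeal panels, where they reach 765 and 2260 CPM, while the microglial sums overlap between groups.

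Of the transcription factors, Stat2 was the abundant one and the only one above 0 in both comparisons with the WT house controls. It was at 26.6, 19.1 and 24.2 CPM in WT house controls, 25.7, 31.0 and 29.5 in WT trained, 28.8, 26.1 and 28.3 in KO house controls and 23.2, 29.5 and 28.9 in KO trained mice. The groups overlapped throughout, and training in WT mice gave 0.31 (SE 0.13, edgeR adjusted p = 0.502). Irf1 and Irf9 ranged only from 5.16 to 8.45 and from 6.21 to 9.33 CPM over the 12 libraries. Irf7, the factor that amplifies type I interferon responses, was at 0.562 to 1.82 CPM. Nlrc5, the activator of class I transcription, was at 0.411, 0.911 and 0.743 CPM in WT house controls and 0.245, 0.0803 and 0.306 in WT trained mice, the 0.0803 CPM being under the floor of 3 counts. It lay at -1.70 (SE 0.62, edgeR adjusted p = 0.502) for training in WT mice, and its KO libraries spanned 0.191 to 0.822 CPM.

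All 12 antiviral effectors lay lower in KO than in WT house controls (median -0.54), Ifit2 at -0.00 (SE 0.26), and all 12 lower after training in WT mice (median -0.80). In trained mice 8 of 12 were lower in KO (median -0.05), and after training in KO mice 8 of 12 (median -0.12). Rsad2 (chromosome 12, 26442746 to 26456452) was at 1.39, 3.05 and 2.60 CPM in WT house controls, 1.14, 0.723 and 1.34 in WT trained, 1.09, 1.71 and 2.07 in KO house controls and 1.30, 1.15 and 0.776 in KO trained mice. The WT trained values were all under the WT house control values, and the KO groups overlapped. It was 2.20-fold lower after training in WT mice (log2 fold change -1.14, SE 0.38, edgeR adjusted p = 0.502). Ifitm1, a membrane protein that blocks viral entry, was at 2.01, 1.79 and 2.85 CPM in WT house controls and 0.574 to 1.69 CPM in the other 9 libraries. It was 2.14-fold lower in KO house controls (-1.09, SE 0.44, edgeR adjusted p = 0.431).

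Ifit1 was at 1.95, 2.24 and 2.68 CPM in WT house controls, 1.47, 0.683 and 0.957 in WT trained, 0.753, 1.29 and 2.03 in KO house controls and 1.07, 0.507 and 1.37 in KO trained mice. KO house control replicate 3 was the 1 library outside the WT house controls that reached their range. Bst2 encodes tetherin, which holds budding virus at the cell surface. It was at 0.977, 5.57 and 11.03 CPM in WT house controls, with an 11.3-fold spread over all libraries. Its order within that group was that of the choroid plexus marker sum (322, 11619 and 23092 CPM). Within each of the other groups Bst2 and this sum also had the same order, the cause of which was not tested. The other effectors had ranges over the 12 libraries of 5.22 to 12.7 CPM (Ifit2), 1.89 to 7.29 (Ifit3), 1.09 to 3.63 (Oasl2), 5.78 to 12.4 (Eif2ak2), 2.49 to 13.4 (Ifitm2), 3.45 to 13.3 (Ifitm3) and 1.65 to 5.65 CPM (Gbp2). Ifit, Ifitm and Gbp genes have close paralogs in tandem, among which the counting could have split reads.

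Among the other interferon-stimulated genes, Parp14, which encodes an ADP-ribosyltransferase, had the lowest p for training. It was at 4.32, 5.61 and 5.58 CPM in WT house controls, 2.98, 2.29 and 2.41 in WT trained, 3.43, 3.12 and 4.25 in KO house controls and 2.83, 2.17 and 3.65 in KO trained mice. Each WT house control was above all other libraries, KO house control replicate 3 coming closest. Parp14 (chromosome 16, 35832874 to 35871544) was 2.02-fold lower after training in WT mice, from 5.17 ± 0.735 to 2.56 ± 0.370 CPM (SD, n = 3 each), a log2 fold change of -1.01 (SE 0.23, adjusted p = 0.502 by edgeR). DESeq2 gave an adjusted p = 0.0489 and 0.0664 stands in the authors' deposited table. Over both genotypes it lay at -0.67 (SE 0.16, edgeR adjusted p = 0.414), and in KO mice alone at -0.32 (SE 0.23), with an interaction of 0.70 (SE 0.32, edgeR adjusted p = 1 after rounding).

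**Figure D4:**
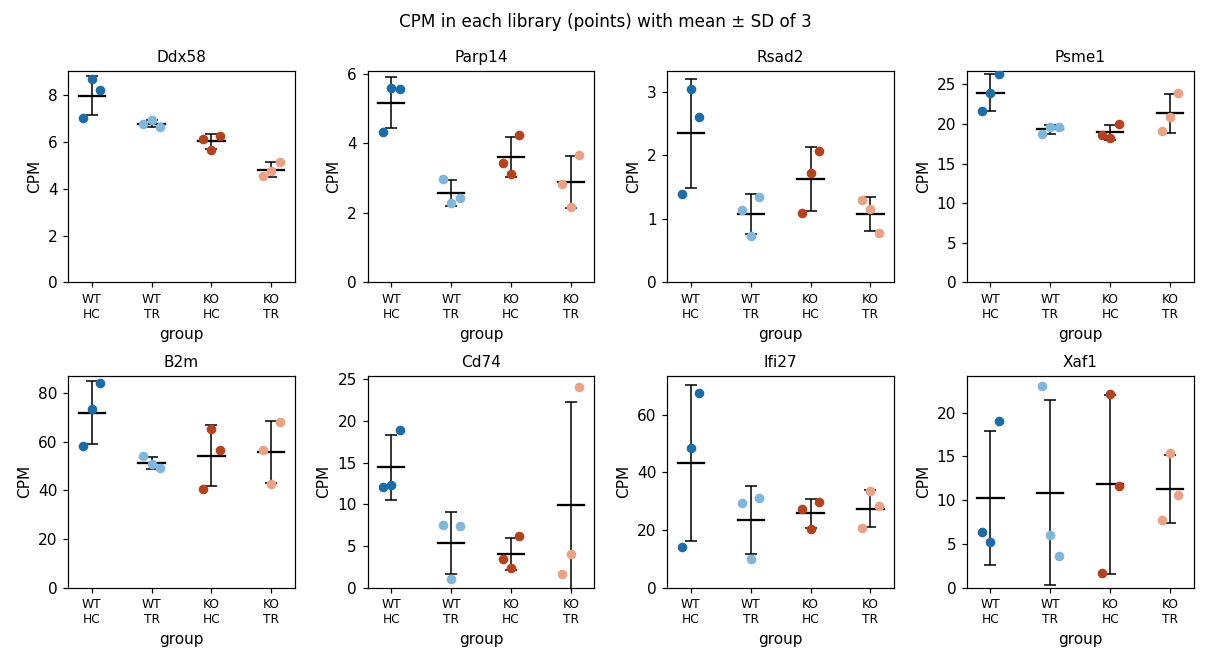
CPM (vertical axes, from 0) of 8 members in each library, as points, with the mean and SD of each group of 3 as bars, the lower bar of Cd74 in KO trained mice being cut at 0. Ddx58 steps down from WT house controls (7.04 to 8.69 CPM) to KO trained mice (4.55 to 5.16 CPM), whereas Cd74 and Xaf1 spread within groups as widely as between them.

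Isg15 was at 0.823, 0.981 and 0.950 CPM in WT house controls and 0.449, 0.321 and 0.536 in WT trained mice, with KO libraries from 0.381 to 1.01 CPM (training in WT -1.07, SE 0.39, edgeR adjusted p = 0.502). Usp18 removes Isg15 from proteins, and it ranged from 0.231 to 1.16 CPM. Rtp4 was at 1.49, 1.65 and 2.23 CPM in WT house controls, 1.14, 0.923 and 1.42 in WT trained, 0.711, 1.33 and 1.06 in KO house controls and 0.689, 0.599 and 1.00 in KO trained mice. For Rtp4 the KO house controls were all under the WT house controls, and the trained groups overlapped. Ifi27 was at 14.1, 48.3 and 67.6 CPM in WT house controls and 9.84 to 33.4 CPM elsewhere, again in the order of the choroid plexus sum within each of the 4 groups. Ifi35 and Ifi44 ranged from 1.38 to 3.55 and from 0.184 to 0.702 CPM.

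Xaf1, whose product binds the apoptosis inhibitor XIAP, was with Stat2 an exception in both comparisons with the WT house controls. It was at 6.38, 5.22 and 19.0 CPM in WT house controls, 23.04, 5.98 and 3.56 in WT trained, 1.67, 22.2 and 11.58 in KO house controls and 7.73, 15.4 and 10.55 in KO trained mice. The groups overlapped fully, with a 13.8-fold range over the libraries and group means of 10.2 to 11.8 CPM. After subtracting group means, its correlation with the other 42 members had a median r of 0.23, against 0.46 over all pairs of members. It was positive with 38 of the 42.

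Members with and without ISRE letters in their promoter were compared by count and median only. For genotype in house controls, 14 of 15 with the letters were lower (median -0.43) and 18 of 19 without them (median -0.38). For training in WT mice, 14 of 15 with the letters were lower (median -0.77) and 18 of 19 without (median -0.49). Ddx58 has the letters from base 3 after its start, so they are not among the stretches printed above.

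The wider interferon pathway was read from further lists. Of 10 interferon ligand genes, 8 were at 0 in every library, the highest count of any was 1, and 0 could be tested. Of 19 genes for receptors and signalling, 11 were lower for genotype in house controls (median -0.01) and 12 for training in WT mice (median -0.10). Il10rb, a shared receptor chain, lay at -0.70 (SE 0.26) for training in WT mice, and Socs1, a feedback inhibitor of JAK signalling, at -0.99 (SE 0.40) for genotype in house controls. Of 20 tested nucleic acid sensing genes, 11 and 12 were lower (medians -0.01 and -0.13). Tlr3, the endosomal sensor of double-stranded RNA, was at 23.5, 22.01 and 21.8 CPM in WT house controls and 17.2, 17.8 and 18.8 in WT trained mice (-0.32, SE 0.09, edgeR adjusted p = 0.502).

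Of 55 further interferon-stimulated genes tested, 45 were lower for genotype in house controls (median -0.33) and 43 for training in WT mice (median -0.49), against 50.2% and 51.7% of all genes. At an unadjusted p under 0.05 by edgeR, 3 and 9 of the 55 were lower, where 4.56% and 5.04% of all genes were, so that the first count is near the share of all genes. Gbp4 lay at -1.26 (SE 0.33) and Gbp9 at -0.93 (SE 0.24) for training in WT mice. Ly6e went the other way for genotype in house controls (0.61, SE 0.18), from 194, 131 and 170 CPM in WT to 216, 226 and 313 CPM in KO mice. Of 29 further antigen presentation genes, 19 and 21 were lower (medians -0.05 and -0.28). Fcgrt, which encodes the neonatal Fc receptor, was at 23.9, 24.2 and 23.998 CPM in WT house controls and 13.6, 12.7 and 17.9 in WT trained mice (-0.71, SE 0.20, edgeR adjusted p = 0.502). No gene of these lists passed the adjusted threshold by edgeR in any of the 7 comparisons.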

How the data were processed

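Dorsal hippocampus RNA was sequenced in 12 libraries. Per the submitters' processing notes, reads were handled with HTSeq 0.9.1, TopHat2 2.1.1, Bowtie2 2.3.4.2, cutadapt 1.18 and, for comparisons, DESeq2 1.18.1, on mm10. The authors deposited raw counts per gene symbol and 4 comparison tables. Per the file headers these give log2 fold changes with errors, p-values raw and adjusted, the test's score, and each gene's averaged normalized signal.

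From the deposited counts, edgeR 4.0.16 (R 4.3.3, limma 3.58.1) fitted 12 libraries with 4 group means (8 residual degrees of freedom; TMM scaling, filterByExpr with a minimum count of 10 and total of 15, robust quasi-likelihood), with Benjamini-Hochberg adjustment over 15622 genes. The scripts were tested on simulated data. Also tried were median-of-ratios scaling, an unfiltered fit, DESeq2 1.42.0, fits of 6 libraries, left-out libraries, title-number series (8 and 4 libraries) and marker covariates. Fold changes have no prior; log2 CPM used a prior count of 2. Marker libraries left out were known from earlier results.

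Members, roles and lists were chosen with earlier results of these data known. Genes named were those called, those without overlap of 6 with 6, and per role those with the lowest p or highest level; per further list up to 4 with the lowest p. Xaf1, Bst2 and Ifi27 were described in detail after their values were seen. The labels give each library its own number but no shared replicate numbers, so the numbers used here only name libraries. They do not say whether each library is a separate animal, so p-values measure the spread between these libraries, which may be technical. Coordinates are GENCODE M21 (mm10), matched by symbol for 43 of 43 members.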

Additional observations from a re-analysis of the deposited data

Results flagged for a closer look

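In the 6 KO libraries and in the 6 trained libraries, KO trained replicate 3 stood far above the rest for all 4 class II chains. It had 24.1 CPM of Cd74, against 1.57 to 6.22 CPM in the other KO and 1.08 to 7.52 CPM in the other trained libraries. For H2-Aa it had 8.54 CPM, against at most 3.23 CPM in the other KO libraries, for H2-Ab1 9.45 CPM against at most 2.80 CPM in the other trained libraries, and for H2-Eb1 10.1 CPM against at most 3.67 CPM. The same library had 0.639 CPM of Ifi44, against 0.184 to 0.344 CPM in the other trained libraries.

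KO house control replicate 3 had 12.4 CPM of Ifitm3, against 3.94 to 6.48 CPM in the other KO libraries, and 7.96 CPM of Irf9, against 6.27 to 6.76 CPM. WT trained replicate 1 had 5.56 CPM of Irf1, below the 7.35 to 7.87 CPM of the other WT libraries. In each case the gap to the nearest library, divided by the range, was above Dixon's critical value of 0.625 for 6 samples. These are 12 such gaps among 172 groups of 6 examined, where chance gives about 8.6. The 4 class II chains correlate closely and count as 1 pattern rather than 4.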

How the results depend on the processing

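By edgeR 0 members were called in the other 6 comparisons under every alternative run with more than 1 library a group. In these runs 0 to 12 of all genes were called. DESeq2 called 1 (Parp14) for training in WT mice (0.0734% of all genes) and 1 (Parp14) over both genotypes (0.483%). The single call over both treatments (Ddx58) was kept by DESeq2 and with the title-number series as a covariate (edgeR adjusted p = 0.0434). Over all genes edgeR called 90 in the main fit and 166 with that covariate. The count of members was 0 with median-of-ratios scaling (93 over all genes) and without the filter (59). It was 0 in the first title-number series (2 over all genes, edgeR adjusted p = 0.471 for Ddx58) and without the 2 KO libraries rich in striatum RNA (26). With the leptomeningeal, choroid plexus and endothelial covariates it was also 0 (12, 112 and 2 over all genes). Without the 3 tissue-rich house controls, a fit that leaves 1 WT house control, the log2 fold change of Ddx58 was -0.37. For genotype over both treatments, leaving out 1 library gave 0 to 1 calls, where 8 to 268 of all genes were called.

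Left-out libraries kept 38 to 42 negative members for genotype in house controls, 40 to 42 for training in WT mice, 32 to 39 for genotype over both treatments and 38 to 42 for training over both genotypes. They gave 13 to 29 for genotype in trained mice, 17 to 37 for training in KO mice and 2 to 9 for the interaction. With the leptomeningeal covariate the negative members were 25 for genotype in house controls, 22 over both treatments and 14 for the interaction. With the endothelial covariate, chosen after seeing the data, they were 21, 19 and 22, with 20 for training in WT mice and 24 over both genotypes. Without the 3 tissue-rich house controls they were 17 for training in KO mice, 26 over both genotypes and 12 for the interaction. That fit leaves 1 WT house control library, assumed to vary like the other groups.

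Cd74 reversed with the leptomeningeal and endothelial covariates, to 0.28 and 0.84 for genotype in house controls and 0.12 and 1.67 for training in WT mice, and H2-Ab1 to 0.47 and 1.05 for genotype in house controls. For training in KO mice Cd74 was -0.078 in the first series, and -0.52 to 1.81 when 1 library was left out. Beyond the construction of each fit, the cause was not tested. No paired analysis was possible because the labels give no shared replicate numbers. Members such as Nlrc5, Ifi44 and Usp18 lie within a few counts of the floor in some libraries, which limits what can be detected for them.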
